A study of Homo sapiens with 4 samples.

Results

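The genes described here are 10 immediate-early genes and their regulators, EGR1, EGR2, EGR3, EGR4, NAB1, NAB2, IER2, IER3, NR4A1 and SRF, of 57500 genes counted in SUM159 cells and in NOS2KO clones of that line. They were selected by a list of symbols that was chosen with the measured clone-against-parental values of these libraries in view, so their values in that contrast are a description without a test. SUM159 is a triple-negative breast cancer cell line with metaplastic features, grown here in medium with serum. The parental cells, with no editing named in the labels, gave 1 library. NOS2KO clones 1, 5 and 6 gave 1 library each. They came from SUM159 cells given a double nickase plasmid aimed at NOS2, the gene of inducible nitric oxide synthase (iNOS), then selected with puromycin and picked by iNOS immunoblot and a nitrite/nitrate assay. Each clone therefore stands for 1 edited cell and its descendants, and the labels name no mock-edited clone as a control.

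Immediate-early genes are transcribed within minutes of a growth factor, serum or stress signal, without the need for new protein synthesis. The RAS-ERK cascade phosphorylates ternary complex factors that sit beside SRF on the CArG box, and SRF with these factors switches on EGR1, FOS and their relatives. The EGR proteins are zinc finger transcription factors, and NAB1 and NAB2 are corepressors that bind EGR proteins and damp their activity.

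The libraries held 90467395 (parental), 122171287 (clone 1), 101337366 (clone 5) and 97362293 (clone 6) counts on genes. NOS2 mRNA was at 1 to 3 counts in the parental library, clone 1 and clone 6, and at 18 counts in the library labelled clone 5, so NOS2 mRNA does not check the labels. Levels are given as CPM, the count scaled to a fixed TMM-adjusted library size. ESR1 (0.0785 to 0.741 CPM), EPCAM (0.0523 to 0.284 CPM) and CDH1 (0.00872 to 0.413 CPM) were low in every library. VIM was high, at 1655 CPM in the parental library and 3855, 2890 and 3339 CPM in clones 1, 5 and 6. PGR had at most 0.0281 CPM. ERBB2, the gene of HER2, was at 48.3 CPM in the parental library and at 55.6, 106.2 and 99.1 CPM in clones 1, 5 and 6. Of 4 markers of other cells, PTPRC, the leukocyte surface phosphatase CD45, was at 4.45 CPM in the parental library and at 68.4, 105.4 and 41.7 CPM in clones 1, 5 and 6. CD3E was at 0 in the parental library and clone 6 and at no more than 0.0751 CPM in the other two libraries. CD14 and PECAM1 were lower in every clone than in the parental library. The 4 markers summed to 33.4 CPM in the parental library and to 61.7 to 116.8 CPM in the clones. Their part in the values below was not tested. In bulk RNA, fewer cells of a type and less RNA per cell cannot be told apart.

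The promoters of EGR1, EGR2 and SRF are shown first because they carry the CArG box, the element that SRF itself binds, and those of NAB1 and NAB2 because they carry the element that EGR proteins bind. RefSeq promoter sequences (GRCh38.p14) were given for 8 of the 10 genes, in 14 stretches of 250 bases before a start site. EGR1 is at chr5:138465274-138465424 on the plus strand. EGR2 is at chr10:62816411-62816486 on the minus strand. SRF is at chr6:43171209-43171268, NAB1 at chr2:190648835-190648875 and NAB2 at chr12:57089042-57089071, all on the plus strand. Capitals mark CArG boxes and EGR sites.
EGR1: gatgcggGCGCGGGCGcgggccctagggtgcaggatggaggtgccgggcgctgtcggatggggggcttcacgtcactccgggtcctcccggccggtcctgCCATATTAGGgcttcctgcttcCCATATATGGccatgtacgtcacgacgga
EGR2: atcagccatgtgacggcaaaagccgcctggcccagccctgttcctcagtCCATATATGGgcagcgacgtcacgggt
SRF: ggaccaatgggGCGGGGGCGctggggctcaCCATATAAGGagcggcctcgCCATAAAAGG
NAB1: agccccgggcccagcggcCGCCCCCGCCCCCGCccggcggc
NAB2: tgtgcgtcctGCGGGGGCGgaggcgcggag
The sequences were searched on both strands.

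EGR1 held 2 CArG boxes, from 105 to 96 and from 83 to 74 bases before its start, and an EGR site further upstream. EGR2 held 1 CArG box, from 71 to 62 bases before its start, with the same 10 letters as the nearer EGR1 box. SRF held 2 CArG boxes within its last 30 bases, so the gene of the factor carries the factor's own element. A CArG box was found in 3 of the 14 stretches and in 1.16% of all 35116 promoter stretches searched, and 0.0313% of them held 2 or more. The EGR site, searched as GCGNGGGCG, was found in 5 of the 14 stretches (of EGR1, SRF, NAB1 and NAB2) and in 8.41% of all stretches. The EGR sites of NAB1 shown above overlap each other and lie on the opposite strand to the letters shown. Another EGR site of NAB1 (chr2:190648908-190648916), not shown, overlaps neither of them. It lies inside an annotated exon, as does the EGR site of NAB2. The core of the cyclic AMP response element, searched as TGACG, was found in 7 of the 14 stretches (of EGR1, EGR2, EGR4, SRF, NAB1 and IER2) and in 21.2% of all stretches. None of the 3 motifs was found in the NR4A1 stretches. A match describes letters, and no binding was measured.

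**Figure D1:**
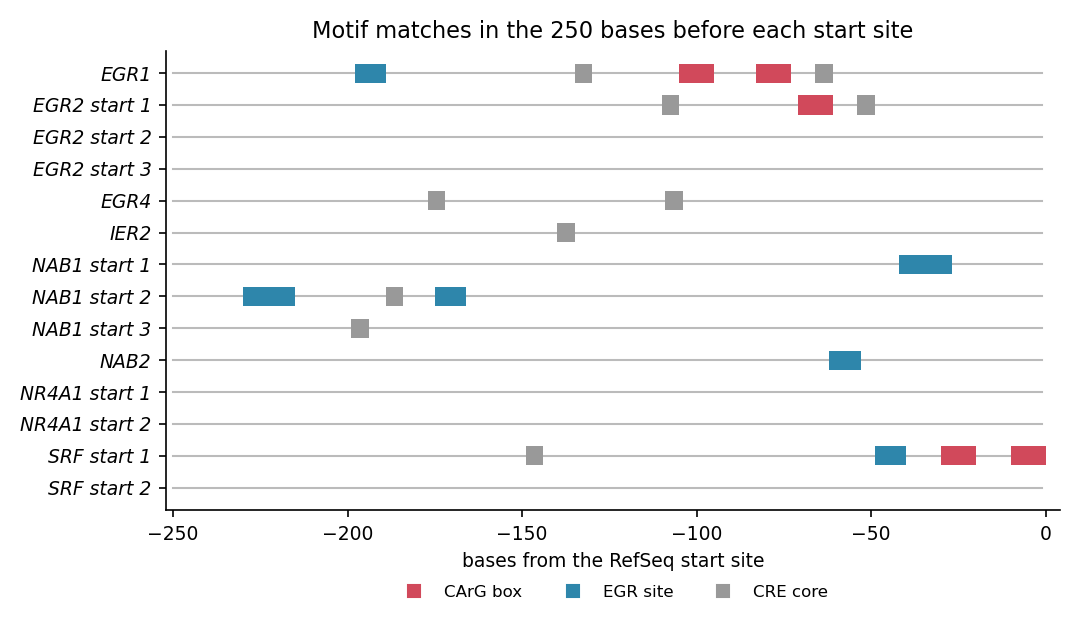
Each line is one of the 14 RefSeq promoter stretches, plotted as bases from the start site from 250 bases upstream to the start, with boxes for CArG boxes (red), EGR sites (blue) and CRE cores (grey). The 2 CArG boxes of EGR1, the 1 of EGR2 and the 2 of SRF all lie within 105 bases of the start.

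The EGR factors were highest in clone 1, and EGR1 was the only family member above the parental level in every clone, except that EGR3 and EGR4 were so too with upper quartile scaling. EGR1 (ENSG00000120738, chr5:138465490-138469315) was at 65.0 CPM in the parental library, from 5880 counts, and at 1169, 95.3 and 359.6 CPM in clones 1, 5 and 6, from 134092, 10159 and 35452 counts. No clone overlapped the single parental value, and the library labelled clone 5 lay closest to it. The ratio to the parental library was 17.97-fold in clone 1 (log2 4.17, exact Clopper-Pearson 95% interval 4.13 to 4.21), 1.47-fold in clone 5 (log2 0.55, 0.50 to 0.60) and 5.53-fold in clone 6 (log2 2.47, 2.43 to 2.51). These intervals cover counting error only, and 1 parental library gives no spread of its own. The mean log2 ratio was 2.40 ± 1.81 (SD, n = 3 clones). EGR1 took 0.0065% of all counts in the parental library and 0.110%, 0.0100% and 0.0364% in clones 1, 5 and 6. Ranked by CPM per kilobase of gene length, EGR1 was at place 2292 in the parental library, 107 in clone 1, 1343 in clone 5 and 324 in clone 6.

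EGR2 (chr10:62811996-62919900), best known for its role in myelinating Schwann cells, was scarce in these cells. Its level was 1.31 CPM in the parental library and 8.14, 1.11 and 2.43 CPM in clones 1, 5 and 6. Clones 1 and 6 were above the parental library (log2 2.64, interval 2.36 to 2.93, and 0.90, 0.58 to 1.23), and the interval of clone 5 included no difference (log2 -0.24, -0.62 to 0.14). EGR3 (chr8:22687659-22693302), an EGR1 relative of lymphocytes and neurons, was at 1.07 CPM in the parental library and 5.00, 1.01 and 1.39 CPM in clones 1, 5 and 6. It was clearly above the parental library in clone 1 alone (log2 2.22, 1.91 to 2.54), and in clones 5 and 6 the intervals reached zero (log2 -0.08, -0.49 to 0.33, and 0.37, -0.01 to 0.76). EGR4 (chr2:73290929-73293705) had 6 counts in the parental library and 64, 10 and 6 counts in clones 1, 5 and 6. Its ratio in clone 1 was 8.41-fold (log2 3.07), with a wide interval of 1.87 to 4.57. The signs of EGR3 in clone 5 and EGR4 in clone 6 turned with upper quartile scaling. Over the 3 clones the mean log2 ratios were 1.10 ± 1.45 for EGR2, 0.84 ± 1.22 for EGR3 and 1.15 ± 1.69 for EGR4 (SD, n = 3), each SD being larger than its mean. EGR1 made up 97.2% of the summed EGR1 to EGR4 level per kilobase in the parental library and 98.2% to 99.2% in the clones, so the family was read almost wholly through EGR1.

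**Figure D2:**
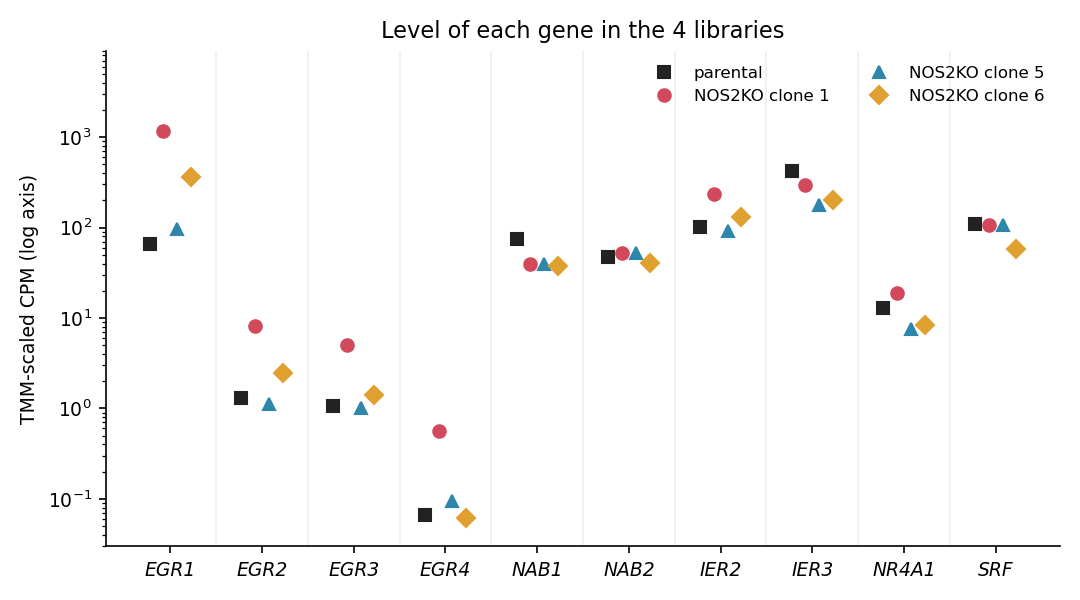
TMM-scaled CPM (log axis) of each of the 10 genes, 1 point for each library, with the parental library as squares and the NOS2KO clones as coloured symbols. EGR1 spans 65.0 CPM in the parental library to 1169 CPM in clone 1, while the 3 clones of NAB1 sit together between 37.1 and 40.0 CPM, below the parental 74.7 CPM.

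The corepressors of the EGR factors differed from each other. NAB1 (chr2:190646746-190692766) was at 74.7 CPM in the parental library and 39.1, 40.0 and 37.1 CPM in clones 1, 5 and 6. The 3 clones were alike and all lay below the parental library, with log2 ratios of -0.93 (-0.99 to -0.88), -0.90 (-0.96 to -0.85) and -1.01 (-1.07 to -0.95). The mean was -0.95 ± 0.06 (SD, n = 3), the smallest SD of the 10 genes. NAB2 (chr12:57088894-57095476), described elsewhere as an EGR1-induced gene, was at 47.2 CPM in the parental library and 51.6, 52.2 and 40.7 CPM in the clones. The clones lay on either side of the parental value, with a mean log2 ratio of 0.02 ± 0.20 (SD, n = 3). Per kilobase, the NAB1 level was 0.974 of the NAB2 level in the parental library and 0.467, 0.472 and 0.561 of it in clones 1, 5 and 6. EGR1 stood at 0.669 of the NAB1 and NAB2 levels together in the parental library, and at 14.8, 1.19 and 5.43 times them in clones 1, 5 and 6, on the same scale. NAB2 shares 69 bases of exon with STAT6 on the other strand, which had 12235 to 29500 counts, and the strand setting of the counting was not given, so reads there cannot be told apart.

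IER2 and IER3 share a name for being early response genes but lay on opposite sides of the parental library in clones 1 and 6. IER2 (chr19:13150415-13154908), a small nuclear protein induced by serum, was at 100.3 CPM in the parental library and 234.5, 91.98 and 129.7 CPM in clones 1, 5 and 6. Clone 1 stood apart (log2 1.22, 1.19 to 1.26), clone 6 was above the parental library by less (0.37, 0.33 to 0.41) and clone 5 lay near it (-0.13, -0.17 to -0.08), with a sign that turned under upper quartile scaling. IER3 (chr6:30743199-30744554), also called IEX-1 and known as a regulator of apoptosis and ERK signaling, was at 419.3 CPM in the parental library and 296.3, 177.7 and 202.2 CPM in the clones. Every clone lay below the parental library, with log2 ratios of -0.50 (-0.52 to -0.48), -1.24 (-1.26 to -1.21) and -1.05 (-1.08 to -1.03). The means were 0.49 ± 0.68 for IER2 and -0.93 ± 0.38 for IER3 (SD, n = 3). IER3 shares 26.5% of its exon bases with IER3-AS1 on the other strand, which had 8 to 22 counts. IER2 shares 30.8% with AC011446.2, also on the other strand, which had 0 counts in every library. With the strand setting not given, these counts do not show how reads in the shared bases were assigned.

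NR4A1 (chr12:52022832-52059507), the orphan nuclear receptor also called Nur77, was at 12.9 CPM in the parental library and 19.1, 7.49 and 8.39 CPM in clones 1, 5 and 6. Clone 1 was above the parental library (log2 0.57, 0.46 to 0.67), and clones 5 and 6 were below it (-0.79, -0.92 to -0.65, and -0.62, -0.75 to -0.49). NR4A1 shares 10.3% of its exon bases with AC025259.3 on the other strand, and reads there cannot be told apart either. AC025259.3 had 0 counts in the parental library and 66, 0 and 1 counts in clones 1, 5 and 6. The mean log2 ratio of NR4A1 was -0.28 ± 0.74 (SD, n = 3). Its relative NR4A2 followed the same pattern at 4.49 CPM in the parental library and 7.16, 2.58 and 2.69 CPM in the clones, while NR4A3 was at 3.70 CPM in the parental library and 0.881, 2.96 and 1.70 CPM in the clones. NR4A2 and NR4A3 did not meet the criterion given below (adjusted p = 0.965 and 0.643, edgeR's quasi-likelihood test).

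SRF (chr6:43171299-43181507), the factor that binds the CArG boxes shown above, was at 109.7 CPM in the parental library and 106.8, 106.8 and 58.1 CPM in clones 1, 5 and 6. Clone 6 alone was far from the parental library (log2 -0.92, -0.96 to -0.87). Clones 1 and 5 each differed from it by -0.04, and their signs turned with the scaling. The mean log2 ratio was -0.33 ± 0.51 (SD, n = 3). SRF was lowest in a clone whose EGR1 level was 5.53-fold the parental level.

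**Figure D3:**
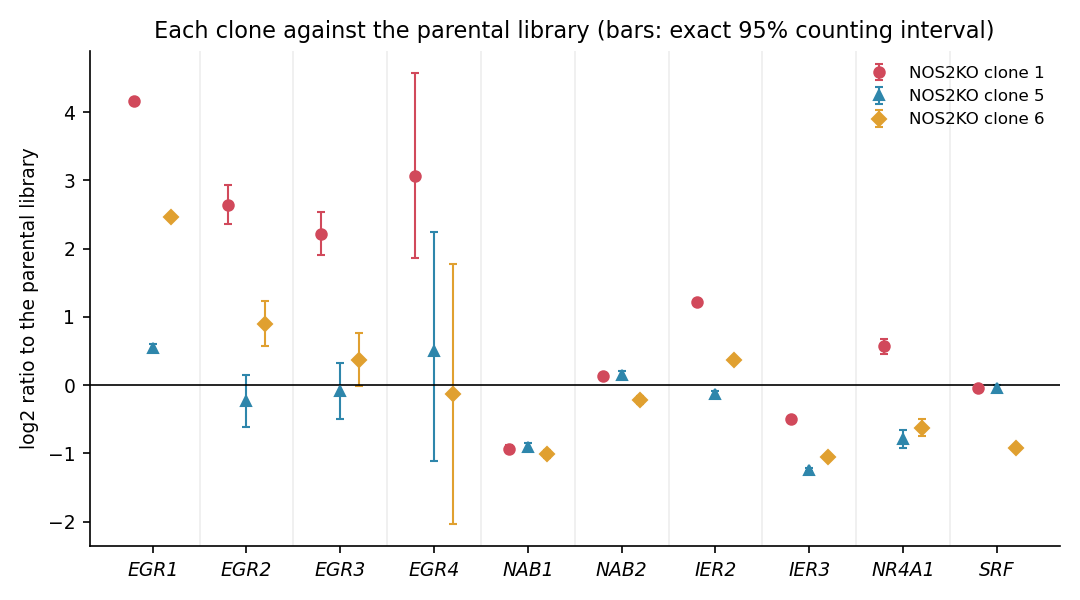
log2 ratio of each NOS2KO clone to the parental library for each gene, with bars for the exact 95% counting interval and a line at no difference. EGR1 lies above the line in all 3 clones (0.55 to 4.17), NAB1 (-1.01 to -0.90) and IER3 (-1.24 to -0.50) lie below it in all 3.

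Across all 22511 genes tested in edgeR's quasi-likelihood fit, 5.34% met the study's volcano-plot criterion as lower in the clones (unadjusted p under 0.05 and log2 below -1) and 4.24% as higher. Of the 10 genes, 0 met it in either direction. Of the 10, NAB1 alone had an unadjusted p under 0.05, as did 1538 lower and 1052 higher genes of the 22511. The study's legend names a Wald test for its criterion. DESeq2's Wald test put EGR1 alone of the 10 past it, with 1144 lower and 1591 higher genes over all. A level of 10 CPM or more in a library was reached by 7 of the 10 genes (EGR2, EGR3 and EGR4 did not reach it). Here and below, a gene may reach it only in a library where it is high. Among all genes that reached it, 5.24% had a log2 ratio below -1 in every clone and 4.26% had one above 1 in every clone. Of the 7 genes, 0 did so in either direction. Being lower in all 3 clones by any amount held for 37.3% of genes and for 3 of the 7 genes, NAB1, IER3 and SRF, with SRF depending on the scaling. Being higher in all 3 held for 27.8% of genes and for EGR1 alone of the 7. Clone by clone, 22.6% of genes were beyond 1 in either direction in clone 1, among them EGR1 and IER2. In clone 5 the share was 23.1%, and IER3 was among them. In clone 6 it was 23.0%, and EGR1, NAB1 and IER3 were among them. The genes were chosen with these contrasts in view, so nothing is read from their counts in them.

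Among the 10 genes, the clones differed from each other most in the EGR factors. The highest clone was 12.27 times the lowest for EGR1, 7.35 times for EGR2, 4.93 times for EGR3 and 9.17 times for EGR4, against 1.08 times for NAB1 and 1.28 times for NAB2. Between clones 1 and 5, 16.1% of genes were beyond 1 on the log2 scale, and so were 3 of the 7 genes, EGR1 (3.62, 3.59 to 3.65), IER2 (1.35, 1.32 to 1.38) and NR4A1 (1.35, 1.23 to 1.47). Between clones 1 and 6 the share was 15.9%, with EGR1 (1.70, 1.68 to 1.72) and NR4A1 (1.19, 1.07 to 1.31) among them. Between clones 6 and 5 it was 4.92%, and EGR1 was the only one of the 6 genes compared to pass (1.92, 1.88 to 1.95). Clone 1 was not set apart in every gene. For NAB1, NAB2 and SRF, clones 1 and 5 were level (-0.03, -0.09 to 0.03, then -0.02, -0.07 to 0.04, and -0.00, -0.04 to 0.04), and SRF in clone 6 was lower than in clone 5 (-0.88, -0.93 to -0.83). Each clone is 1 library, so these differences have no replicate check.

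**Figure D4:**
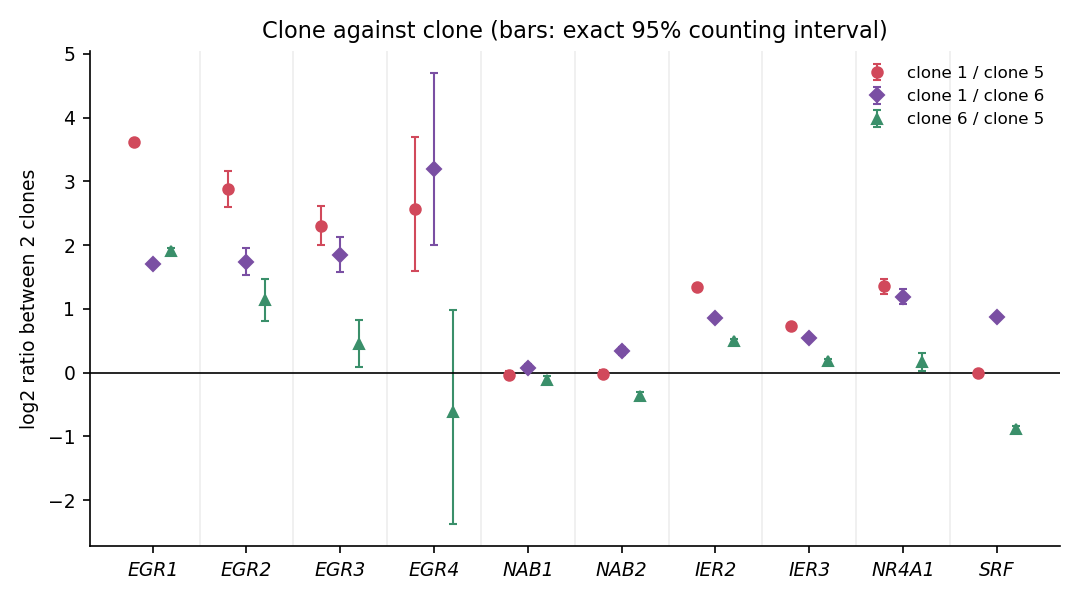
log2 ratio between each pair of NOS2KO clones for each gene, with bars for the exact 95% counting interval. EGR1 is at 3.62 for clone 1 over clone 5, and the 3 NAB1 ratios lie between -0.11 and 0.08.

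Clone 1 above clone 6 above clone 5 was the order of EGR1, IER2, IER3 and NR4A1, 4 of the 7 genes, and of 26.3% of all genes with at least 10 CPM. The mitochondrial share and the summed heat shock level stood in that order too. The mitochondrial share of counts was 2.06% in clone 1, 1.98% in clone 6, 1.68% in clone 5 and 1.41% in the parental library. The summed level of 11 heat shock genes, listed as signs of handling, was 7903 CPM in clone 1, 5157 in clone 6, 4100 in clone 5 and 2862 in the parental library, and 7 of the 11 followed the order. Of those 11, 4 met the criterion as higher and 0 as lower, against 4.24% and 5.34% of all genes tested. They were HSPA1A (3.72 CPM in the parental library, 16.8 ± 5.02 CPM in the clones), HSPA8 (606.6 and 2601 ± 834.3 CPM), HSPA1B (14.3 and 60.3 ± 17.9 CPM) and HSPB1 (185.0 and 687.4 ± 97.2 CPM), each SD over n = 3. HSPA8 and HSPB1 followed the order. HSPA1A (13.2, 22.5 and 14.5 CPM in clones 1, 5 and 6) and HSPA1B (49.9, 80.95 and 50.1 CPM) were instead highest in clone 5. Of 9 genes of the late growth response, 3 met the criterion as higher, the DNA synthesis genes TYMS (fitted log2 2.53), RRM2 (2.11) and PCNA (1.30). DESeq2 put 5 of the 9 past it as higher, with 1591 higher over all genes. The late growth genes did not follow the clone order as a list. Of the 9, 2 stood in it (22.2%). The summed level of the 9 was 2045 CPM in clone 1, 1829 in clone 5, 1448 in clone 6 and 1267 in the parental library. That sum leaned on CCND1, at 717.2 CPM in the parental library and 334.2, 855.8 and 466.0 CPM in clones 1, 5 and 6. The median log2 ratio of the 9 did stand in the order, at 1.57 in clone 1, 1.19 in clone 6 and 0.92 in clone 5. The part of these measures in the EGR1 values was not tested.

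Compared per kilobase of gene length, IER3 led the 10 genes in the parental library (309.2 CPM per kilobase), followed by IER2 (32.7), SRF (26.1), EGR1 (20.7), NAB2 (15.7), NAB1 (15.3), NR4A1 (1.77), EGR2 (0.354), EGR3 (0.221) and EGR4 (0.0279). Averaged over the clones the order was EGR1, IER3, IER2, SRF, NAB2, NAB1, NR4A1, EGR2, EGR3 and EGR4. EGR1 led in clone 1 alone (372.6 against 218.5 for IER3). IER3 led in clone 5 (131.1 against 30.4 for EGR1) and in clone 6 (149.1 against 114.6). EGR1 stood at 172.5 ± 178.3 CPM per kilobase (SD, n = 3), and its range over the clones overlapped that of IER3. SRF overlapped NAB2, NR4A1 overlapped EGR2, EGR2 overlapped EGR3, and EGR3 overlapped EGR4. IER3 and IER2, IER2 and SRF, NAB2 and NAB1, and NAB1 and NR4A1 did not overlap over the clones.

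The wider set of immediate-early genes showed no common direction. Of 66 other immediate-early genes, 11 met the criterion as lower and 7 as higher, against 5.34% and 4.24% of all genes tested. Their median fitted log2 fold change was -0.26, against 0.0956 over all genes tested. Of the 56 that reached 10 CPM in a library, all 3 clones were lower for 22 and higher for 22, and 15 stood in the order of clone 1, clone 6 and clone 5. Over all genes at that level the shares were 37.3%, 27.8% and 26.3%. At that level the list had median log2 ratios of -0.03, -0.00 and -0.11 in clones 1, 5 and 6. Those of all genes were -0.05, -0.13 and -0.10. No gene of the list had an adjusted p under 0.05 in edgeR. There 19 had an unadjusted p under 0.05, against 1538 lower and 1052 higher genes of 22511. In DESeq2 14 of the list had an adjusted p under 0.05, against 1095 over all genes. The 4 largest falls were MAFF, a small MAF factor (120.2 CPM in the parental library and 11.0 ± 4.66 CPM in the clones, fitted log2 -3.45, SE 0.51, edgeR adjusted p = 0.259), KLF4 (-2.70), CEBPB, a bZIP factor of inflammation (662.5 CPM against 126.1 ± 16.7 CPM, -2.39), and DUSP5, a nuclear ERK phosphatase (-2.37). Among the genes that met the criterion, the 4 largest rises were CTGF, a matricellular protein (14.98 CPM against 103.6 ± 46.7 CPM, fitted log2 2.79, SE 0.53, edgeR adjusted p = 0.332), PLK2, a polo-like kinase (16.5 CPM against 106.1 ± 5.18 CPM, 2.68), ID3 (1.80) and KLF6 (1.65). FOSB (fitted log2 4.24) and FOS (3.86) had larger values without meeting the criterion in edgeR. Over the alternatives, adjusted p ran from 6.93e-06 to 0.726 for MAFF and from 0.000756 to 0.739 for CTGF, the lowest being DESeq2's.

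FOS, the partner of JUN in AP-1, was at 36.5 CPM in the parental library and 1094, 102.4 and 389.7 CPM in clones 1, 5 and 6. It was above the parental library in every clone and in the order of EGR1. It did not meet the criterion in edgeR (fitted log2 3.86, SE 1.23, adjusted p = 0.452) but did in DESeq2 (log2 3.88, adjusted p = 0.0183), and the adjusted p ran up to 0.763 over the alternatives. JUN was at 107.8 CPM in the parental library and 398.3, 234.4 and 328.2 CPM in the clones, and met it (1.57, SE 0.40, adjusted p = 0.351). Per kilobase, FOS was at 11.3 CPM in the parental library and 337.7 in clone 1, where EGR1 was at 372.6.

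**Figure D5:**
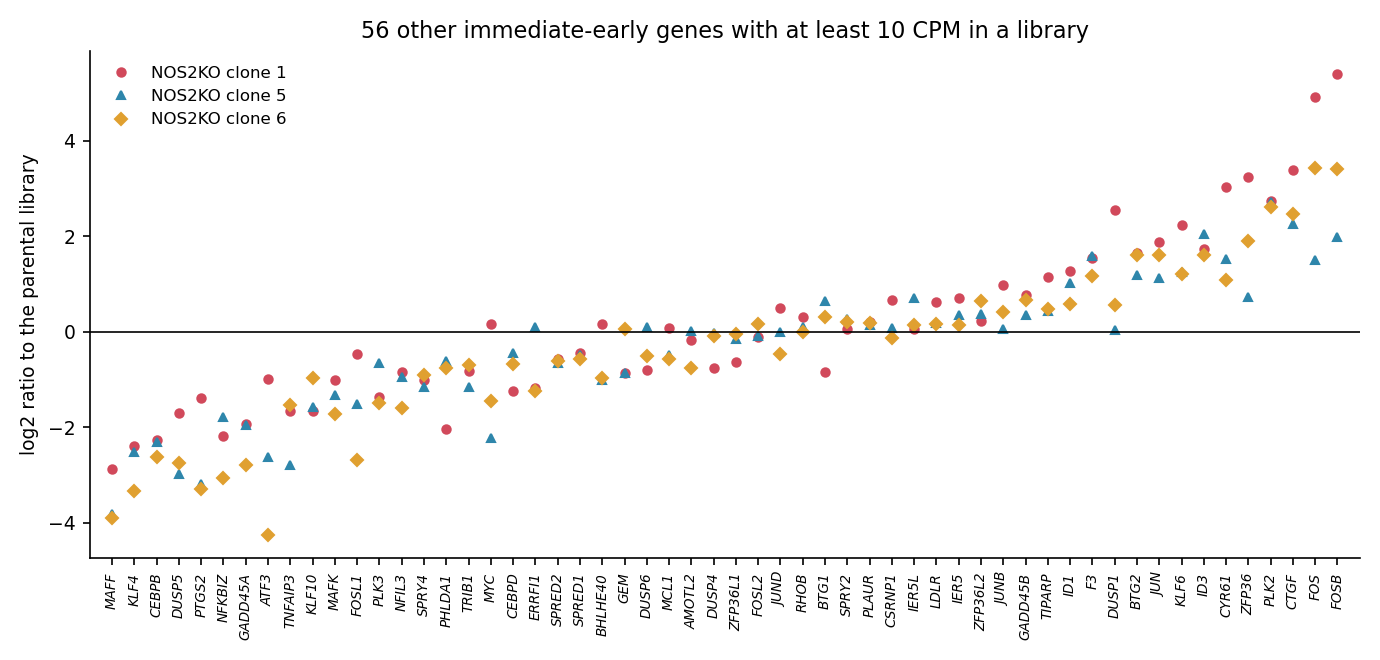
log2 ratio of each NOS2KO clone to the parental library for the 56 other immediate-early genes that reached 10 CPM in a library, sorted by fitted log2 fold change. The left end holds MAFF, KLF4 and CEBPB with all 3 clones below the parental library, and the right end holds FOS and FOSB, where clone 1 is highest and clone 5 lowest, with 22 genes below and 22 above in all 3 clones.

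The genes whose log2 ratios in the 3 clones lay nearest to those of EGR1, by Euclidean distance among 10707 genes, were WFDC3 (distance 0.91), LINP1 (1.08), ZFP36 (1.10), TC2N (1.11) and KIF20A (1.36). The genes ranked had at least 10 CPM in a library. WFDC3 and TC2N reached that in clone 1 alone (10.8 and 17.9 CPM). LINP1 reached it in clones 1 and 6 alone (15.4 and 11.2 CPM). These 3 genes thus entered the ranking through clones where EGR1 was high. TC2N was below the parental library in clone 5 (log2 -0.52), where EGR1 was above it. Only WFDC3 was within a distance of 1, and its parental level was 0.354 CPM. ZFP36, an mRNA-destabilizing protein and itself on the immediate-early list, was at 12.9 CPM in the parental library and 122.3, 21.5 and 48.3 CPM in clones 1, 5 and 6. FOS ranked 9 (distance 1.53) and its relative FOSB ranked 78. Likeness over 3 clones that share 1 parental library is a description.

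Among 6 tested cofactors of SRF, 1 met the criterion as lower and 1 as higher, against 5.34% and 4.24% of all genes tested. DESeq2 put 0 past it as lower and 1 as higher, with 1144 and 1591 over all genes. ELK4, a ternary complex factor, was at 71.7 CPM in the parental library and 36.4, 36.1 and 34.3 CPM in the clones (fitted log2 -1.01, SE 0.26, edgeR adjusted p = 0.332), with -0.99 in DESeq2, just short of the limit of 1. FHL2, an SRF-binding LIM protein, was at 39.2 CPM and 71.2, 151.9 and 174.1 CPM (1.75, SE 0.56, adjusted p = 0.41). ELK1 (73.3 CPM in the parental library, 60.6 to 90.5 CPM in the clones), ELK3 (66.0, 66.7 to 113.2), MRTFA, listed also as MKL1 (27.6, 28.4 to 41.6), and MRTFB, also MKL2 (34.1, 27.7 to 35.7), did not meet it. Of 20 tested cytoskeletal targets of SRF and its MRTF cofactors, 4 met the criterion as higher and 0 as lower. DESeq2 put 9 of them past it as higher and 0 as lower, with 1591 and 1144 over all genes. The median fitted log2 of the 20 targets was 1.08, against 0.0956 over all genes tested. Of the 18 with at least 10 CPM, 11 were higher in all 3 clones, against 27.8% of all such genes. TAGLN (2.01 CPM in the parental library) and MYL9 (7.57 CPM) are among the 11. They reached 10 CPM in clones alone, so they entered the 18 through libraries where they were high. The 4 that met the criterion were VCL, the focal adhesion protein vinculin (92.0 CPM against 323.5 ± 63.0 CPM, fitted log2 1.81), ACTG1, a cytoplasmic actin (941.6 against 2973 ± 554.5 CPM, 1.66), TGFB1I1 (1.30) and CNN2 (186.5 against 428.8 ± 72.9 CPM). None of the 18 followed the order of clone 1, clone 6 and clone 5.

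Genes described elsewhere as EGR1 targets moved both ways. Of 16 tested, 4 met the criterion as lower and 2 as higher, against 5.34% and 4.24% of all genes tested. Their median fitted log2 was -0.05. Of the 13 with at least 10 CPM, 1 followed the clone order of EGR1, against 26.3% of all such genes. PTGES, a prostaglandin E synthase, was at 171.7 CPM in the parental library and 32.1 ± 4.30 CPM in the clones (fitted log2 -2.42). VEGFA, the angiogenic growth factor, was at 1217 CPM against 239.3 ± 30.1 CPM (-2.35), and ICAM1 was at 140.0 CPM against 53.5 ± 14.7 CPM (-1.39). THBS1, the matrix protein thrombospondin 1, was at 69.0 CPM in the parental library and 550.1, 3302 and 1192 CPM in clones 1, 5 and 6 (fitted log2 4.61, SE 1.01, edgeR adjusted p = 0.357). Its clones stood in the reverse order to EGR1, with clone 5 highest. F3, the tissue factor of coagulation, was at 19.7 CPM against 53.5 ± 8.03 CPM (1.44).

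Upstream of and beside the EGR proteins, the counts below stand against 5.34% lower and 4.24% higher over all genes tested. Of 18 tested genes of the RAS-ERK cascade and its promoter-facing kinases and factors, 1 met it as lower and 0 as higher. That gene was MAP2K1, the ERK kinase MEK1, at 140.6 CPM in the parental library and 69.8 ± 9.56 CPM in the clones (fitted log2 -1.01, SE 0.29, edgeR adjusted p = 0.345). In DESeq2 its log2 fold change was -0.99, so 0 genes of the cascade met the criterion there. Of 13 genes of the NuRD complex, through which NAB proteins repress, 1 met it as lower, GATAD2A (-1.03), and 1 as higher, RBBP7 (1.11). RNA levels do not report ERK activity, which was not measured in these libraries.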

How the data were processed

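Poly(A)-enriched RNA of 4 SUM159 samples (1 parental library, NOS2KO clones 1, 5 and 6) was sequenced as paired ends. The values are the read counts on each gene as deposited by the authors, not normalized. The submitters' processing notes name bcl2fastq 2.17, Trimmomatic 0.36, STAR 2.5.2b, featureCounts of Subread 1.5.2, DESeq2 and GRCh38. The annotation release and strand setting are not given in the sources used here. Of 57500 identifiers, 56898 had a symbol in GENCODE 29, and the 10 genes had that release's coordinates, as did 54784 in all.

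The genes, lists and tests were chosen with earlier results of these data known. Counts were TMM-scaled and fitted with edgeR 4.0.16 in R 4.3.3 (filterByExpr, glmQLFit, glmQLFTest, Benjamini-Hochberg over 22511 genes), clones against parental. The spread comes from the clones alone (2 residual and 2.75 prior degrees of freedom) and p-values measure only the spread between these libraries. An exact permutation test of 1 against 3 libraries cannot go below p = 0.25. A gene that meets the criterion is said to rise or fall. Its p before adjustment is under 0.05 and its log2 fold change is beyond 1 in either direction. These limits are in the legend of the study's volcano plot, which names a Wald test. The p here is from edgeR's quasi-likelihood test unless DESeq2 is named. Ratios carry an exact Clopper-Pearson 95% interval, for counting error only, and 3 counts set the floor (0.0262 to 0.0332 CPM). No intervals account for PCR duplicates.

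Besides the 10 genes, the text names up to 4 genes per list and direction with the largest fitted change among those that met the criterion, had at least 10 CPM in a library and moved the same way in all 3 clones, and JUN, FOS, MKL1, MKL2, ELK1, ELK3, ELK4, NR4A2 and NR4A3. The 5 genes nearest to EGR1 were named too. FOSB and the genes of the closing observations were chosen after their values were seen. The fits and intervals were first tested on simulated data. Alternatives were DESeq2 1.42.0, RLE, upper quartile and library size scaling, other filters, an adjusted p threshold, and each clone left out. The intervals were computed with scipy 1.17.1 in Python 3.11.15. Tables were joined with pandas 2.3.3 and numpy 2.4.6, and plots drawn with matplotlib 3.10.9.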

Additional observations from a re-analysis of the deposited data

How the results depend on the processing

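Of 106 values recomputed under alternatives for 17 results, 97 stayed within the limits set for them, 9 moved and 0 reversed. Those limits let a value near zero change sign. The mean log2 ratio of NAB2 went from 0.019 to -0.036 without clone 1 and to -0.043 without clone 5. In the main fit 1202 genes met the criterion as lower and 955 as higher. DESeq2 gave 1144 and 1591, and upper quartile scaling 1002 and 1124. With an adjusted p under 0.05 the counts were 1 (INHBE) and 0. At an unadjusted p under 0.05 with no minimum of fold change, edgeR gave 1538 and 1052, and DESeq2 gave 1095 genes with an adjusted p under 0.05. Leaving out each clone in turn gave 825 to 1608 lower and 641 to 1791 higher genes, the highest of each without clone 1. Of the other immediate-early genes, 18 met the criterion in the main fit, 20 to 25 with a clone left out, 25 in DESeq2 and 0 with an adjusted p under 0.05. Of the 10 genes, 0 were beyond 1 in all 3 clones, 1 (NAB1) with 0.58 in place of 1, and 0 to 1 with a clone left out, 1 without clone 1 (IER3) and 1 without clone 5 (EGR1). The cause of these shifts was not tested.

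Upper quartile scaling moved every log2 ratio up by 0.05 in clone 1 and by 0.13 in clones 5 and 6, and the mean of NAB1 to -0.84. Over the alternatives the mean log2 ratio of EGR1 ran from 1.51 (without clone 1) to 3.32 (without clone 5), that of EGR2 from 0.33 to 1.77, of EGR3 from 0.15 to 1.30, of EGR4 from 0.19 to 1.79, of IER2 from 0.12 to 0.80, of IER3 from -1.15 to -0.78, of NAB2 from -0.04 to 0.14, of NR4A1 from -0.70 to -0.03 and of SRF from -0.48 to -0.04. No paired analysis was possible because there is 1 parental library against 3 clones, so no numbers are shared by pairs. Depth limits EGR4 most, at 6 to 64 counts.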

Other observations

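Within AP-1, the subunits stood apart from each other. FOSL1 was at 70.5 CPM in the parental library and 51.1, 24.6 and 10.8 CPM in clones 1, 5 and 6, while FOSB was at 3.77 CPM and 159.2, 14.8 and 39.7 CPM. FOSB was above and FOSL1 below the parental library in every clone, and neither met the criterion in edgeR (adjusted p = 0.448 and 0.572). FOSB met it in DESeq2 (adjusted p = 0.0111), with adjusted p up to 0.754 over the alternatives. ATF3, a stress-induced bZIP factor, was at 40.5 CPM in the parental library and 20.5, 6.56 and 2.11 CPM in the clones, without meeting the criterion (adjusted p = 0.534). FOSL2 was at 198.3 CPM in the parental library and 182.7 to 222.5 CPM in the clones.

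MYC was at 604.4 CPM in the parental library, 672.2 CPM in clone 1, 129.0 CPM in the library labelled clone 5 and 220.0 CPM in clone 6, so that clone 1 lay above the parental library and the other two below it, as with NR4A1. DUSP1, an ERK and p38 phosphatase, was at 56.2 CPM in the parental library and 326.9, 57.7 and 83.1 CPM in clones 1, 5 and 6. PTGS2, the inducible cyclooxygenase, met the criterion as lower (15.9 CPM in the parental library and 6.05, 1.75 and 1.61 CPM in the clones, fitted log2 -2.34, edgeR adjusted p = 0.414). GADD45A, a growth arrest gene, met it too (285.5 CPM and 75.1, 73.9 and 40.9 CPM, fitted log2 -2.17, adjusted p = 0.304).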
